A study of Mus musculus with 8 samples.

Results

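The nuclear respiratory chain genes are the genes of the cell nucleus that encode subunits of complexes I to IV of the mitochondrial respiratory chain, together with the Ndufaf assembly factors of complex I. Rows of the count table were taken when the symbol began with Nduf or Uqcr or with Cox4 to Cox8, or was Sdha, Sdhb, Sdhc or Sdhd. Of 57180 rows, 90 matched, and 83 remained after symbols holding -ps, which mark pseudogenes, were dropped. The 76 rows that reached 5 counts in 4 or more of the 8 libraries are described here, among 14730 genes that met the same minimum. They comprise 39 complex I genes (7 core subunits, 30 accessory subunits and the copies Ndufb4b and Ndufb4c), 4 of complex II, 8 of complex III, 17 of complex IV and 8 assembly factors. Ndufb4c, and Cox6c2 of complex IV, are annotated as processed pseudogenes and stayed because their symbols do not hold -ps. The other 7 of the 83 rows had too few counts. Cox8b, Cox8c and Ndufb11b were at 0 in every library, and Cox7b2 and Ndufa11b had at most 2 counts in any. Cox6a2, the heart and skeletal muscle form of a complex IV subunit, had 1 count in Rax-SmoCKO replicate 2, 10 counts in control replicate 2 and 0 elsewhere. Ndufs6b had 5, 11, 10 and 3 counts in Rax-SmoCKO replicates 1 to 4, against 3, 4, 4 and 4 in control replicates 1 to 4.

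The respiratory chain sits in the inner mitochondrial membrane and passes electrons from NADH and succinate to oxygen. Complex I takes electrons from NADH and complex II from succinate, both hand them to ubiquinone, complex III moves them on to cytochrome c, and complex IV reduces oxygen. Complexes I, III and IV pump protons, and the gradient drives ATP synthase. Complexes I, III and IV mix subunits from nuclear and mitochondrial genes, whereas complex II is wholly nuclear. The retina is known both for a high demand for energy and for strong glycolysis.

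Retinas of Rax-SmoCKO embryos (Rax-Cre; Smo CKO/CKO) were compared with control retinas (Smo CKO/CKO without Cre), 4 libraries each, so that both groups carry the conditional Smo allele. Smo encodes the membrane protein that relays Hedgehog signals, and Rax-Cre acts from the optic vesicle stage in the retina, the pigment epithelium and parts of the ventral forebrain. Isolated retinas yielded the RNA, which was measured by 3′-Tag-Seq, a method that reads the 3′ end of each transcript, so that counts do not grow with transcript length. The study places these retinas at E13.5, while the labels number the day upwards from 13 to 16 over the controls and from 17 to 20 over the Rax-SmoCKO samples. The mice were kept on a CD1 background. Whether a library came from 1 embryo or a pool could not be learned from the sources used here, so p-values measure only the spread between these samples.

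Library totals were 3026843 to 4615667 counts in Rax-SmoCKO and 3017480 to 4328567 in control. Levels are in CPM, counts of a gene scaled to the size of its library with TMM factors. Smo had 2.84, 4.95, 3.23 and 3.67 CPM in Rax-SmoCKO replicates 1 to 4, against 23.8, 21.5, 16.3 and 23.1 CPM in control replicates 1 to 4. Control replicate 2 was rich in lens genes, with a summed level of 12009 CPM over 12 lens markers, against 5.34 to 269.7 CPM in Rax-SmoCKO and 3.57 to 7.81 CPM in the other controls. Rax-SmoCKO replicates 2 and 3 carried Y-linked counts, 1131 and 893, where no other library held more than 1. Xist had 0.43 and 0 CPM in these replicates, against 551 and 463 CPM in Rax-SmoCKO replicates 1 and 4 and 440 to 792 CPM in control. By these genes both replicates read as male and all other libraries as female, so sex was not balanced between the groups. The summed level of 12 retinal ganglion cell markers was 4786 to 6865 CPM in Rax-SmoCKO and 4145 to 4938 CPM in control, and that of 10 progenitor markers was 6614 to 7178 CPM in Rax-SmoCKO and 7603 to 8224 CPM in control. The summed level of 7 pigment epithelium markers was 102 to 633 CPM in Rax-SmoCKO and 64.1 to 273 CPM in control, with Rpe65 at 0 throughout. In bulk retina, fewer cells of a type and less RNA per cell cannot be told apart.

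The respiratory chain genes as a group had nearly the same levels in both genotypes. Their summed level was 9632 ± 275 CPM in Rax-SmoCKO and 9682 ± 410.5 CPM in control retinas (SD, n = 4 each), about 0.958% of the counts of Rax-SmoCKO replicate 4 and 0.981% of those of control replicate 4. Of the 76 genes, 40 had a log2 fold change above 0 and 36 below, with a median of 0.0049, against a median of 7.6e-05 over all genes tested. In edgeR's quasi-likelihood test, adjusted by Benjamini-Hochberg over all genes tested, 0 of the 76 passed an adjusted p of 0.05, where 14 of all genes tested passed (0.095%), and 6 of those also had an absolute log2 fold change over 1 (0.0407%). The smallest adjusted p among the 76 was 0.177. DESeq2 and limma-voom also passed 0 of them, although DESeq2 gave 13 of the 76 no adjusted p.

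Most of the fitted changes were small and narrowly bounded. The absolute log2 fold change was under 0.1 in 55 of the 76 genes (72.4%), against 44.1% of all genes tested and 64.3% of the 4523 genes with a mean of 50 to 450 CPM, the range that holds 54 of the 76. Among those 54 the share was 79.6%. The 95% interval lay within 0.5 of 0 on the log2 scale for 64 of the 76 genes (84.2%), against 55.6% of all genes tested. At 50 to 450 CPM it did so for 96.3% of the 54 and 95.7% of all genes tested, so that at matched level the shares were alike. At an unadjusted p under 0.05, 3 were higher in Rax-SmoCKO (Ndufa9, Sdhd and Ndufa4l2, 3.95% of the 76), where 4.89% of all genes tested were. At the same threshold 5 were lower (Ndufa13, Ndufa1, Ndufv3, Ndufaf1 and Ndufaf4, 6.58%), where 4.61% of all genes tested were. The libraries of the groups did not overlap for 1 gene higher in Rax-SmoCKO, Ndufa4l2, against 2.7% of all genes tested, and for 2 lower, Ndufa13 and Ndufv3, against 3.0%. These shares lie near those of all genes tested. At 50 to 450 CPM, 9.26% of the 54 had an unadjusted p under 0.05, against 13.0% of all genes tested there. Of the 54, 1 was higher and 4 lower, and of the 4523, 243 were higher and 345 lower.

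**Figure D1:**
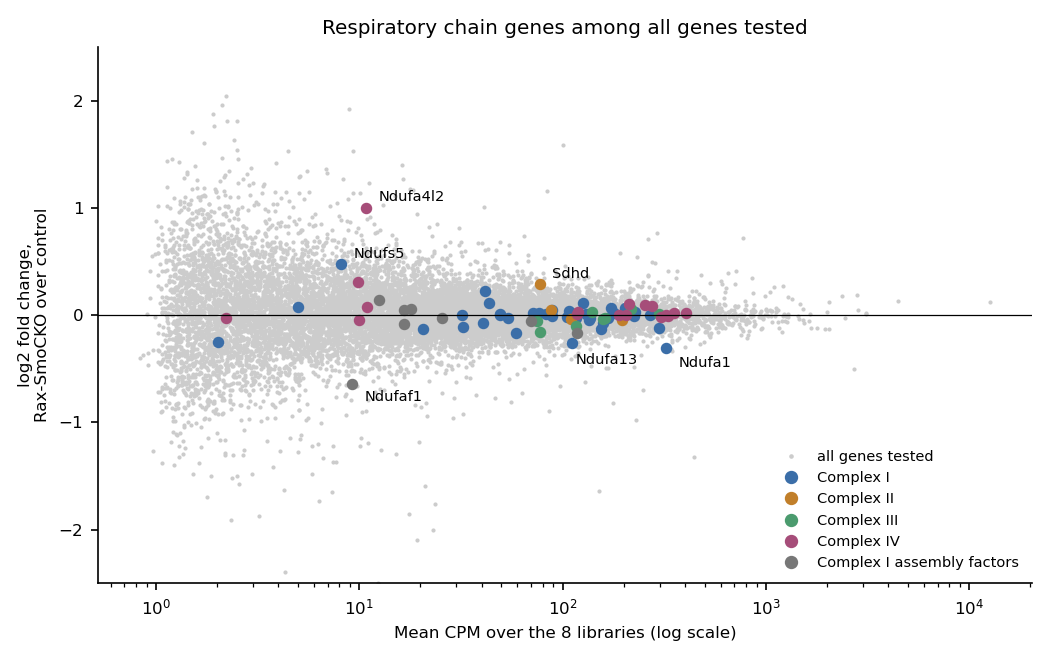
Each point is 1 gene, with its mean CPM over the 8 libraries on a log axis and its log2 fold change, Rax-SmoCKO over control, on the other (grey, the 14730 genes tested, of which 22 beyond 2.5 in either direction lie outside the picture; colours, the 76 respiratory chain genes by complex). The coloured points lie along 0, apart from low-count genes such as Ndufa4l2 at 1.00 and Ndufaf1 at -0.64.

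The genes spanned a wide range of levels within each genotype. Subunit genes of complexes II and III lay between 75.1 CPM for Uqcr11 and 298 CPM for Uqcrh (means over the 8 libraries). The highest level was that of Cox7c, a small complex IV subunit, at 404 CPM. The lowest were the copy Ndufb4b at 2.01 CPM and Cox7a1, the heart and skeletal muscle form of a complex IV subunit, at 2.20 CPM. The assembly factors, which help to build complex I but are not part of it, had a median of 17.4 CPM, against 108 CPM for the complex I genes and 206 CPM for those of complex IV. In the GENCODE annotation of GRCm38, 75 of the 76 genes had a position, on 19 chromosomes, 3 of them on the X chromosome (Ndufa1, Ndufb11 and Cox7b). Another gene overlapped 9 of them on the same strand and 26 on the opposite strand, and whether reads were assigned by strand is unknown. The last 150 bases were compared for the 72 genes with a protein-coding transcript. They had a close match in another gene for 11, whose counts are therefore less certain. The ends of the remaining genes, among them Ndufb4b, Ndufb4c and Cox6c2, were not compared.

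**Figure D2:**
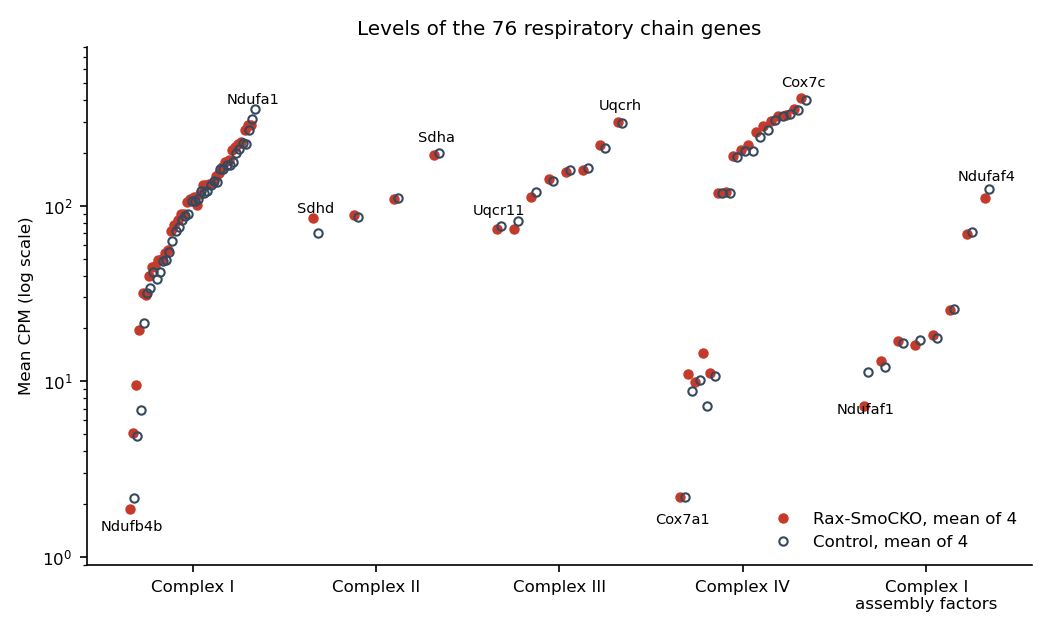
Mean CPM on a log axis of each of the 76 genes, ordered by level within its complex, as filled points for Rax-SmoCKO and open points for control (means of 4 libraries). The pairs of points lie on or beside each other from 2.01 CPM (Ndufb4b) to 404 CPM (Cox7c), and part most for Ndufa4l2, Ndufaf1 and Ndufs5.

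The summed level of each complex differed between the genotypes by less than 1 SD of the control libraries, except that of the assembly factors. It was 4467 ± 224 CPM in Rax-SmoCKO and 4566 ± 260.4 CPM in control retinas for complex I, and 476 ± 10.1 CPM in Rax-SmoCKO and 466 ± 35.2 CPM in control retinas for complex II. For complex III it was 1238 ± 52.9 CPM in Rax-SmoCKO and 1251 ± 55.9 CPM in control retinas, and for complex IV 3174 ± 41.1 CPM in Rax-SmoCKO and 3103 ± 125 CPM in control retinas (SD, n = 4 each). The 8 assembly factors summed to 277 ± 9.23 CPM in Rax-SmoCKO and 296 ± 12.1 CPM in control retinas, with 277, 267, 275 and 289 CPM in Rax-SmoCKO replicates 1 to 4, against 278, 302, 299 and 304 CPM in control replicates 1 to 4. Rax-SmoCKO replicate 4 lay above control replicate 1, and the groups overlapped there. Ndufaf4 averaged 111 ± 6.77 CPM in Rax-SmoCKO and 124 ± 8.54 CPM in control retinas, the largest share of this sum.

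**Figure D3:**
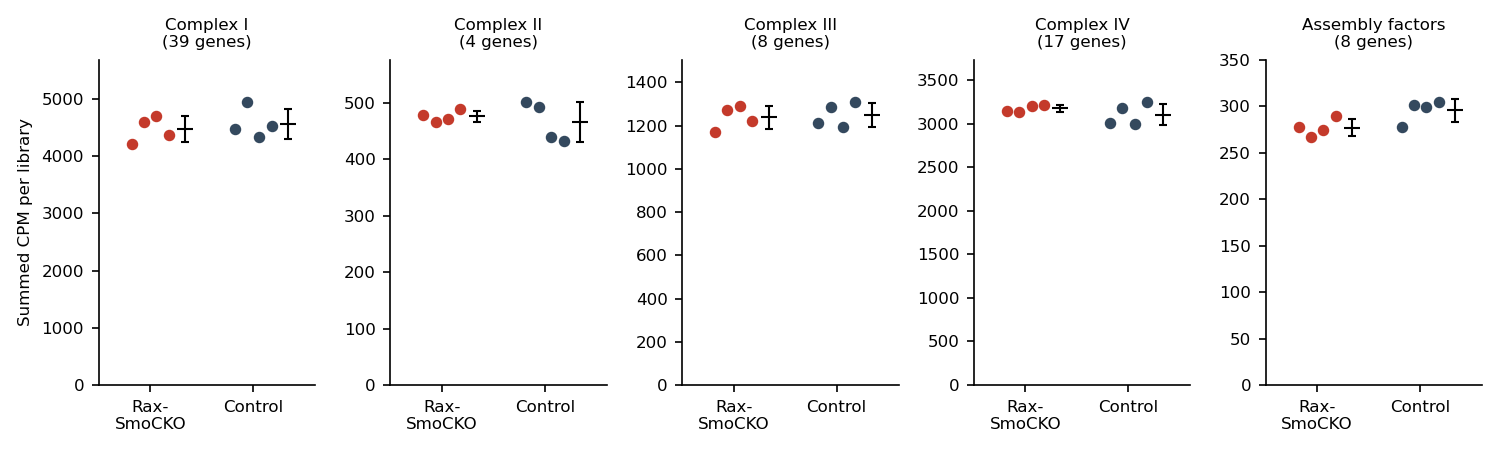
Summed CPM of the genes of each complex, with 1 point per library (Rax-SmoCKO left, control right; bars, mean ± SD of 4 libraries). The groups overlap in every panel, and only the assembly factors, at 277 against 296 CPM, differ by more than the SD of both groups.

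Complex I is the entry point for electrons from NADH. Its 7 nuclear core subunits carry the flavin and the iron-sulfur clusters. All 7 had a log2 fold change below 0, from -0.13 in Ndufs8 to -0.0022 in Ndufv1, the subunit that binds NADH, and each interval included 0. Of the 30 accessory subunits, which surround the core, 18 lay above 0 and 12 below, with a median of 0.01. These signs are given as a description, with no test of the 7 together.

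Ndufa13, an accessory subunit that complex I needs for its assembly, had 96.2, 106, 100.4 and 101 CPM in Rax-SmoCKO replicates 1 to 4, against 119, 121, 117 and 125 CPM in control replicates 1 to 4. All 4 Rax-SmoCKO values lay below the lowest control. The log2 fold change was -0.26 (SE 0.06, 95% interval -0.39 to -0.13), with an adjusted p of 0.179 (edgeR quasi-likelihood test, Benjamini-Hochberg). The exact two-sided permutation test gave p = 0.029, the smallest that 4 against 4 libraries allow. Every gene whose groups do not overlap gets this value, so it only restates that separation. The change was close to the same without the 3 libraries with lens or Y-linked counts, at -0.29. Ndufa13 lies on the minus strand at chr8:69894180-69902558 of GRCm38 and overlaps Yjefn3 on the same strand and Tssk6 on the other. Reads of Yjefn3 may be counted with it, and so may those of Tssk6 if reads were not assigned by strand.

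Ndufa1, an X-linked membrane subunit and the complex I gene with the highest level, had 278, 317, 301 and 254 CPM in Rax-SmoCKO replicates 1 to 4, against 336, 477, 312 and 299 CPM in control replicates 1 to 4. The groups overlapped, and control replicate 2, the library rich in lens genes, lay far above the rest. Its log2 fold change was -0.31 (SE 0.13, 95% interval -0.59 to -0.03), and -0.13 without control replicate 2. The adjusted p was 0.482 in edgeR's quasi-likelihood test (Benjamini-Hochberg), and the part of the lens RNA was not tested.

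Ndufv3, an accessory subunit of the arm that binds NADH, had 58.1, 57.6, 56.0 and 52.0 CPM in Rax-SmoCKO replicates 1 to 4, against 58.1, 67.5, 63.2 and 61.9 CPM in control replicates 1 to 4. The groups were apart only by the margin between Rax-SmoCKO replicate 1 and control replicate 1. Its log2 fold change was -0.16 (SE 0.07, 95% interval -0.32 to -0.01) with an adjusted p of 0.506 (edgeR quasi-likelihood test, Benjamini-Hochberg). The exact two-sided permutation p of 0.029 again only restates that the groups did not overlap.

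Other accessory subunits leaned in either direction without passing the test. Ndufa9, which sits near the joint of the 2 arms of the complex, ranged over 38.7 to 51.1 CPM in Rax-SmoCKO and 36.3 to 42.4 CPM in control retinas, with a log2 fold change of 0.23 (SE 0.10, 95% interval 0.0034 to 0.45). Ndufa12, a peripheral-arm subunit, ranged over 144 to 158 CPM in Rax-SmoCKO and 156 to 170.2 CPM in control retinas, with -0.13 (SE 0.06, 95% interval -0.26 to 0.00059). Ndufs5, a subunit on the side of the intermembrane space, ranged over 7.35 to 10.8 CPM in Rax-SmoCKO and 4.59 to 8.92 CPM in control retinas with a wide interval, 0.47 (SE 0.23, 95% interval -0.03 to 0.98). The 3′ end of Ndufs5 is identical over 150 bases to that of the processed pseudogene BC002163 (Ndufs5-ps), and a 63-base stretch of the Ndufa12 end matches Gm15920 (Ndufa12-ps), so both counts are uncertain. The copies Ndufb4b and Ndufb4c averaged 1.86 ± 0.555 CPM in Rax-SmoCKO and 2.16 ± 1.19 CPM in control retinas and 5.11 ± 1.21 CPM in Rax-SmoCKO and 4.89 ± 0.761 CPM in control retinas (SD, n = 4 each), too low to bound a change within 0.5 on the log2 scale.

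**Figure D4:**
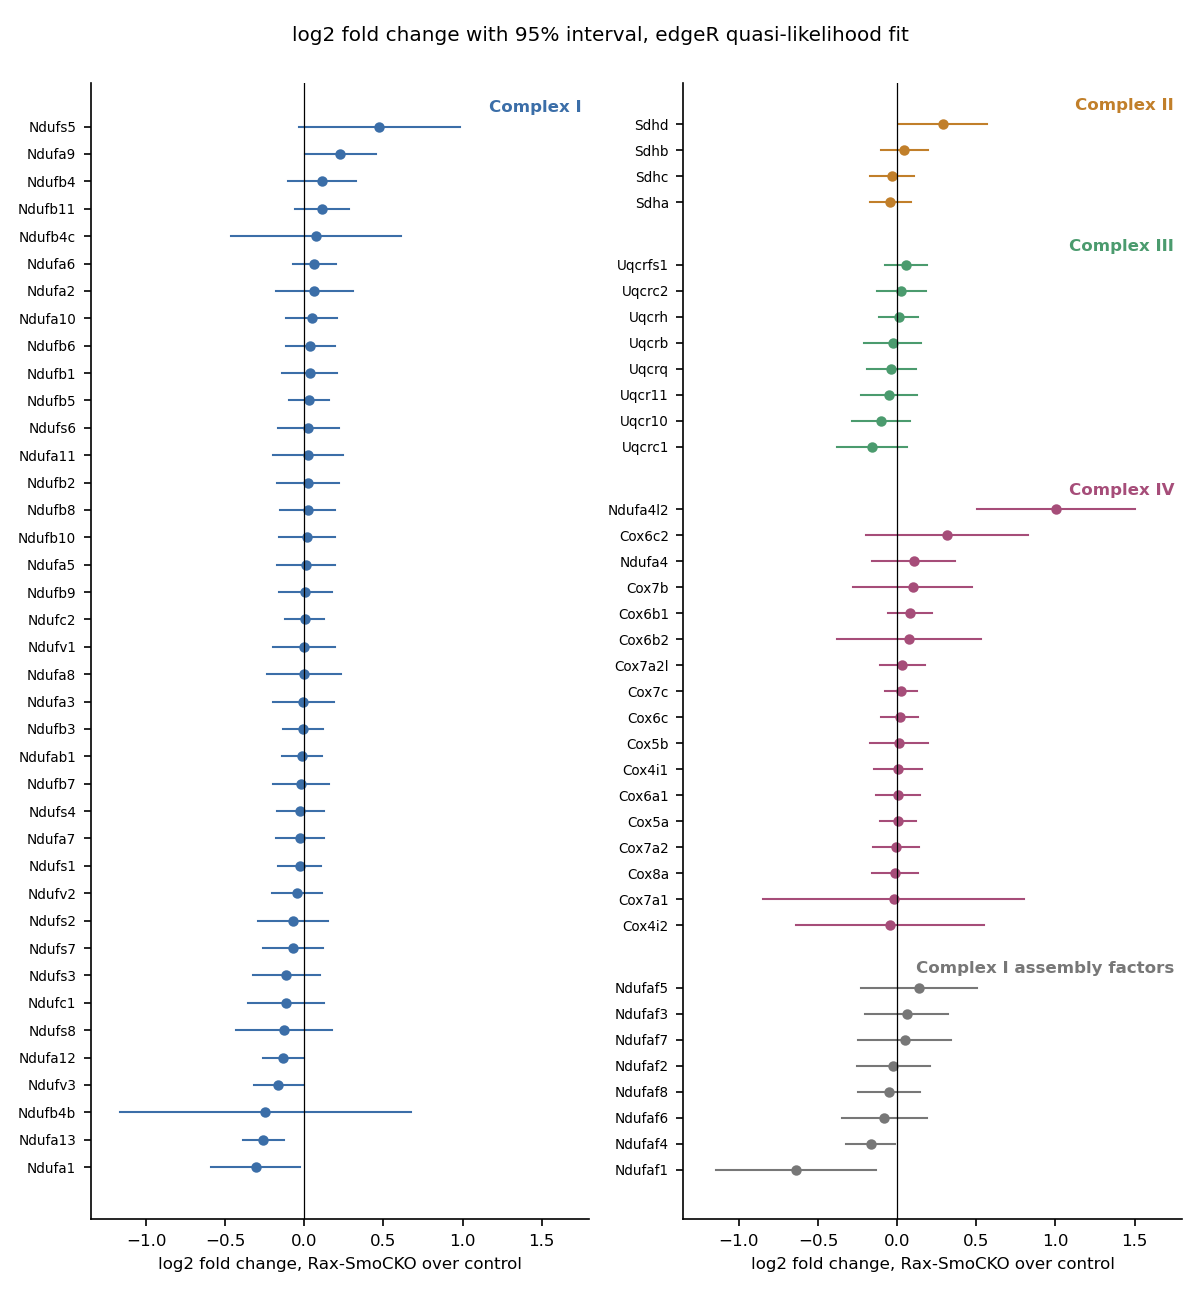
log2 fold change, Rax-SmoCKO over control, of each of the 76 genes (points) with its 95% interval (lines) from the edgeR fit, sorted within complexes I to IV and the assembly factors. Of the 76 intervals 68 span 0. The 8 that do not are those of Ndufa1, Ndufv3, Ndufa9, Sdhd, Ndufaf4, Ndufaf1 (-1.14 to -0.14), Ndufa13 (-0.39 to -0.13) and Ndufa4l2 (0.50 to 1.5).

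Complex II is succinate dehydrogenase, shared by the respiratory chain and the citric acid cycle. Sdhd, 1 of its membrane anchors, had 91.0, 83.9, 81.0 and 83.7 CPM in Rax-SmoCKO replicates 1 to 4, against 84.9, 81.7, 55.8 and 56.0 CPM in control replicates 1 to 4. Control replicates 3 and 4 lay well below all other libraries, whereas control replicates 1 and 2 lay among the Rax-SmoCKO values. Sdhd had a log2 fold change of 0.29 (SE 0.13, 95% interval 0.01 to 0.57) and an adjusted p of 0.506 (edgeR quasi-likelihood test, Benjamini-Hochberg).

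The other complex II genes overlapped between the groups. Sdha, the flavoprotein, had 191, 192, 193 and 199 CPM in Rax-SmoCKO replicates 1 to 4, against 206, 209, 194 and 189 CPM in control replicates 1 to 4. Sdhb, the iron-sulfur subunit, had 88.1, 84.5, 89.9 and 93.4 CPM in Rax-SmoCKO replicates 1 to 4, against 93.4, 86.6, 78.8 and 85.9 CPM in control replicates 1 to 4. Both genes overlapped between the groups, with log2 fold changes of -0.04 (SE 0.06, 95% interval -0.17 to 0.08) and 0.05 (SE 0.07, 95% interval -0.10 to 0.19). The anchor Sdhc averaged 108 ± 3.62 CPM in Rax-SmoCKO and 111 ± 6.38 CPM in control retinas (SD, n = 4 each).

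Complex III carries electrons from ubiquinol to cytochrome c. Of its 8 genes 3 lay above 0 and 5 below, and all 8 intervals stayed within 0.5 of 0. Uqcrc1, a core protein on the matrix side, had 59.0, 75.7, 81.0 and 77.4 CPM in Rax-SmoCKO replicates 1 to 4, against 79.9, 91.6, 72.1 and 82.2 CPM in control replicates 1 to 4. The groups overlapped, with Rax-SmoCKO replicate 1 lowest, and the log2 fold change was -0.16 (SE 0.10, 95% interval -0.38 to 0.06). It was -0.06 without Rax-SmoCKO replicate 1 and -0.09 without control replicate 2.

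The Rieske iron-sulfur protein Uqcrfs1 had 214, 214, 229.9 and 230.4 CPM in Rax-SmoCKO replicates 1 to 4, against 226, 213, 202 and 212 CPM in control replicates 1 to 4. The small subunit Uqcr10 had 105, 115, 120.1 and 108 CPM in Rax-SmoCKO replicates 1 to 4, against 102, 124, 121 and 134 CPM in control replicates 1 to 4. Uqcrh, the hinge protein that docks the cytochromes and the most abundant of the complex, had 288, 304, 317 and 288 CPM in Rax-SmoCKO replicates 1 to 4, against 296, 289, 290.3 and 314 CPM in control replicates 1 to 4. In none of the 3 were the groups apart, and their log2 fold changes were 0.06 (SE 0.06, 95% interval -0.08 to 0.19) for Uqcrfs1, -0.10 (SE 0.08, 95% interval -0.28 to 0.08) for Uqcr10 and 0.01 (SE 0.06, 95% interval -0.11 to 0.13) for Uqcrh.

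Complex IV reduces oxygen, and several of its nuclear subunits exist as pairs of isoforms that differ between tissues or with oxygen supply. Of its 17 genes 13 lay above 0 and 4 below, with a median of 0.02, and 14 had an absolute log2 fold change under 0.1. The nuclear subunits Cox4i1, Cox5a and Cox5b, which surround the mitochondrially encoded core, had log2 fold changes of 0.01, 0.0043 and 0.01. A 73-base stretch of the Cox5b end is identical in Gm11273 (Cox5b-ps), which averaged 71.8 counts a library, against 451 for Cox5b. A 50-base stretch of the Cox5b end also matches Igfbp4 at 96% identity, and Igfbp4 averaged 1301 counts a library, so the Cox5b count is uncertain.

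Ndufa4l2 had the largest fold of the 76 genes. It encodes a relative of Ndufa4, and in cultured cells it is known as a target of the hypoxia-inducible factor. It had 10.9, 12.9, 13.7 and 20.3 CPM in Rax-SmoCKO replicates 1 to 4, against 9.58, 6.39, 5.86 and 6.97 CPM in control replicates 1 to 4, or 46, 60, 51 and 61 counts against 29, 27, 23 and 25. All 4 Rax-SmoCKO values lay above the highest control, Rax-SmoCKO replicate 4 the highest, although replicate 1 of each group came close.

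The log2 fold change of Ndufa4l2 was 1.00 (SE 0.23, 95% interval 0.50 to 1.5), its adjusted p 0.177 in edgeR's quasi-likelihood test (Benjamini-Hochberg). The exact two-sided permutation p of 0.029 follows from the groups not overlapping. Without any filter on low counts the quasi-likelihood test gave an adjusted p of 0.005, and DESeq2 gave none. The gene lies at chr10:127514967-127517154 on the plus strand of GRCm38, over Shmt2 on the other strand. Whether reads were assigned by strand is unknown, so reads of Shmt2 may be among its counts. The retinal ganglion cell markers given above were also higher on average in Rax-SmoCKO, and their part in the Ndufa4l2 values was not tested. The summed level of 7 pericyte markers, a list added after the values were seen because these cells can express Ndufa4l2, overlapped between the groups, at 64.7 to 125 CPM in Rax-SmoCKO and 76.5 to 94.5 CPM in control, with Higd1b at 0 in every library.

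Ndufa4 itself, a late-joining subunit of complex IV once assigned to complex I, had 209.9, 197, 238 and 235 CPM in Rax-SmoCKO replicates 1 to 4, against 241, 227, 153 and 198 CPM in control replicates 1 to 4. Control replicate 3 was lowest, and the groups overlapped. Its log2 fold change was 0.11 (SE 0.12, 95% interval -0.16 to 0.37). Ndufa4l2 thus had 6.54 ± 1.52% in Rax-SmoCKO and 3.54 ± 0.516% in control of the counts of Ndufa4 (SD, n = 4 each), from 5.19 to 8.66% and from 2.82 to 3.97%.

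The ratios of the other isoform pairs differed between the groups by less than 1 SD. Cox4i2, a form induced by low oxygen and found in lung, had 9.71, 5.38, 10.2 and 14.3 CPM in Rax-SmoCKO replicates 1 to 4, against 12.2, 7.34, 9.18 and 11.7 CPM in control replicates 1 to 4. The values were scattered and overlapped, and amounted to 5.29 ± 2.21% in Rax-SmoCKO and 5.33 ± 1.23% in control of Cox4i1. Cox4i1 had 181, 204, 201 and 178 CPM in Rax-SmoCKO replicates 1 to 4, against 182, 195, 179 and 205 CPM in control replicates 1 to 4.

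Cox6b2, known from testis, had 10.9, 13.8, 13.2 and 6.67 CPM in Rax-SmoCKO replicates 1 to 4, against 11.9, 10.4, 10.7 and 10.04 CPM in control replicates 1 to 4. Its broadly expressed partner Cox6b1 had 275, 272, 303 and 288 CPM in Rax-SmoCKO replicates 1 to 4, against 258, 278, 250.03 and 289 CPM in control replicates 1 to 4. The ratio was 3.92 ± 1.17% in Rax-SmoCKO and 4.03 ± 0.509% in control (SD, n = 4 each), and both log2 fold changes had intervals that included 0, 0.07 (SE 0.21, 95% interval -0.38 to 0.53) and 0.08 (SE 0.06, 95% interval -0.06 to 0.22).

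Cox7a1, the form of heart and skeletal muscle, had 1.18, 2.15, 2.15 and 3.33 CPM in Rax-SmoCKO replicates 1 to 4, against 2.31, 1.89, 1.53 and 3.07 CPM in control replicates 1 to 4. Cox7a2, its broadly expressed partner, had 321, 326, 349 and 323 CPM in Rax-SmoCKO replicates 1 to 4, against 306, 348, 306 and 365 CPM in control replicates 1 to 4. Cox7a1 came to 0.67 ± 0.274% in Rax-SmoCKO and 0.659 ± 0.164% in control of Cox7a2. Cox7a2l, a related protein that joins complexes III and IV into supercomplexes, had 116, 114, 122 and 128 CPM in Rax-SmoCKO replicates 1 to 4, against 109, 119.5, 118 and 124 CPM in control replicates 1 to 4, or 36.5 ± 2.25% in Rax-SmoCKO and 35.5 ± 2.10% in control of Cox7a2. The groups overlapped for all 3 genes.

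Of the subunits whose other isoform was at or near 0, Cox6a1 had 200.5, 202, 207 and 217 CPM in Rax-SmoCKO replicates 1 to 4, against 198, 224, 196 and 205 CPM in control replicates 1 to 4. Cox8a had 297, 329, 312 and 278 CPM in Rax-SmoCKO replicates 1 to 4, against 305, 317, 284 and 322 CPM in control replicates 1 to 4. Both overlapped between the groups, with log2 fold changes of 0.01 (SE 0.06, 95% interval -0.13 to 0.14) and -0.01 (SE 0.07, 95% interval -0.16 to 0.13). Cox7c had 417, 417, 399 and 398 CPM in Rax-SmoCKO replicates 1 to 4, against 408, 392.2, 393 and 409 CPM in control replicates 1 to 4 and a log2 fold change of 0.02 (SE 0.05, 95% interval -0.08 to 0.13).

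Cox7b, an X-linked subunit, varied most between libraries for its count. It had 292, 211, 213 and 335 CPM in Rax-SmoCKO replicates 1 to 4, against 184, 210.4, 294 and 292 CPM in control replicates 1 to 4. The values fell at a high and a low level in both groups, and the groups overlapped. Its SD within groups was 0.34 on the log2 scale, 7.25 times what counting alone would give, against a median ratio of 1.57 over the 54 respiratory chain genes at 50 to 450 CPM and 1.48 over all genes tested in that range. Rax-SmoCKO replicates 2 and 3, which carried Y-linked counts, were low, and so were control replicates 1 and 2, which carried none. The log2 fold change of 0.10 (SE 0.17, 95% interval -0.28 to 0.47) therefore bounds little.

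Cox6c2, annotated as a processed pseudogene related to Cox6c, had 13.5, 12.04, 9.96 and 8.34 CPM in Rax-SmoCKO replicates 1 to 4, against 7.26, 10.7, 11.5 and 5.85 CPM in control replicates 1 to 4. The groups overlapped, and its log2 fold change was 0.31 (SE 0.24, 95% interval -0.20 to 0.83), or 0.16 without control replicate 4 and 0.21 without Rax-SmoCKO replicate 1. The parent gene Cox6c averaged 356 ± 17.8 CPM in Rax-SmoCKO and 352 ± 9.47 CPM in control retinas (SD, n = 4 each).

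Among the assembly factors, Ndufaf1, which helps to build the membrane arm of complex I, had 7.35, 5.81, 9.96 and 5.67 CPM in Rax-SmoCKO replicates 1 to 4, against 11.9, 11.1, 8.16 and 13.9 CPM in control replicates 1 to 4. Control replicate 3 lay below Rax-SmoCKO replicate 3, and the other controls lay above every Rax-SmoCKO library. For Ndufaf1 the log2 fold change was -0.64 (SE 0.23, 95% interval -1.14 to -0.14), and the adjusted p 0.421 (edgeR quasi-likelihood test, Benjamini-Hochberg), at a mean of 34.6 counts a library. The gene lies at chr2:119655446-119662827 on the minus strand of GRCm38 and overlaps no other annotated gene.

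Ndufaf4, which acts with Ndufaf3 early in assembly, had 111, 111, 103 and 119 CPM in Rax-SmoCKO replicates 1 to 4, against 112, 124, 130.0 and 131 CPM in control replicates 1 to 4. The groups overlapped through control replicate 1. The log2 fold change was -0.17 (SE 0.07, 95% interval -0.32 to -0.01), with an adjusted p of 0.492 (edgeR quasi-likelihood test, Benjamini-Hochberg), while Ndufaf3 averaged 18.5 ± 1.18 CPM in Rax-SmoCKO and 17.7 ± 0.949 CPM in control retinas (SD, n = 4 each).

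Ndufaf5, a methyltransferase-like enzyme that modifies the core subunit Ndufs7, had 14.9, 15.3, 11.8 and 10.3 CPM in Rax-SmoCKO replicates 1 to 4, against 11.2, 13.5, 10.96 and 12.3 CPM in control replicates 1 to 4. The groups overlapped, with a log2 fold change of 0.14 (SE 0.17, 95% interval -0.23 to 0.51). The factors Ndufaf2, Ndufaf6, Ndufaf7 and Ndufaf8 had log2 fold changes from -0.08 to 0.05.

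**Figure D5:**
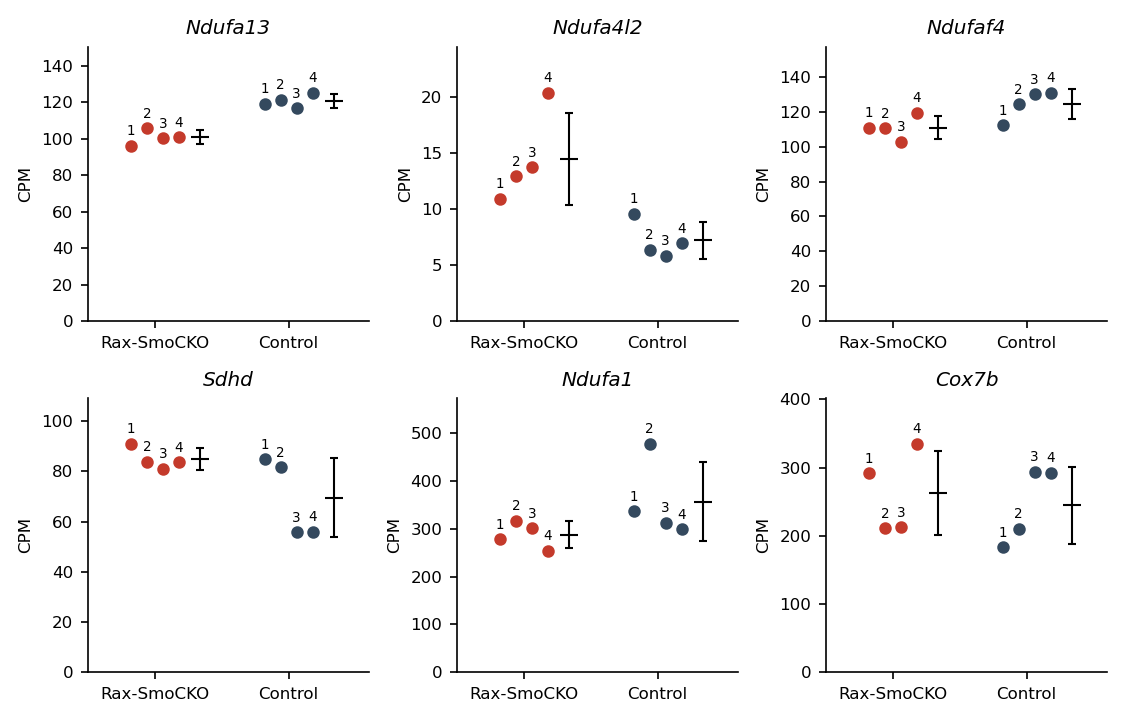
CPM in each library of 6 genes that lean apart or vary most, with 1 numbered point per replicate (Rax-SmoCKO left, control right; bars, mean ± SD of 4 libraries, axes from 0). Ndufa13 and Ndufa4l2 are apart between the groups, Ndufa1 is raised by control replicate 2 at 477 CPM, and Cox7b and Sdhd split within the control group.

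Many respiratory chain promoters are known to hold sites for the nuclear respiratory factor encoded by Nrf1, for the ETS factor GABPA and for YY1, so the windows from 250 bases before to 50 bases after the start were searched on both strands for GCGCANGC, CCGGAAGT and AAGATGGC as letters of these motifs, which do not contain each other. RefSeq windows on GRCm38.p6 were matched by symbol for 61 of the 76 genes. GCGCANGC stood in 17 of them (27.9%), against 22.7% of 10231 tested genes with a window and 11.2% of all 27025 genes with a window. CCGGAAGT stood in 4 (6.56%), against 9.04% and 4.31%, and AAGATGGC in 8 (13.1%), against 5.23% and 3.19%. The 27 genes with any of the 3 had a median log2 fold change of 0.0055, and the 34 without had 0.0011. A match is a run of letters and not a measured binding site.

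The 3 windows shown are those of the genes with an unadjusted p under 0.05 that hold any of the motifs, read on the strand of the gene with the matches in capitals. Sdhd (chr9:50603800-50604099, minus strand) holds GCGCANGC once, Ndufaf4 (chr4:24897833-24898132, plus strand) holds it 3 times, of which the first 2 overlap, and Ndufa9 (chr6:126849095-126849394, minus strand) holds AAGATGGC after the start.
Sdhd: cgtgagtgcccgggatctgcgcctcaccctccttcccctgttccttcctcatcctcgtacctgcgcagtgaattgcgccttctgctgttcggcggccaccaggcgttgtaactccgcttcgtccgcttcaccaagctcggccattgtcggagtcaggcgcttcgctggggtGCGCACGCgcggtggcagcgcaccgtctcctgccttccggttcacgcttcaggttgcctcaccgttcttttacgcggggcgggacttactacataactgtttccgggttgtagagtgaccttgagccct
Ndufaf4: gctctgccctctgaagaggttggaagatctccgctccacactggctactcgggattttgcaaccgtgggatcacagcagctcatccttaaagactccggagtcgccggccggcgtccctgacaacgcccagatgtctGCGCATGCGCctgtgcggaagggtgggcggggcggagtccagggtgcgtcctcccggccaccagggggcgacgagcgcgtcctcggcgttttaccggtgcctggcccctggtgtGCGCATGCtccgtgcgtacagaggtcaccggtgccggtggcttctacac
Ndufa9: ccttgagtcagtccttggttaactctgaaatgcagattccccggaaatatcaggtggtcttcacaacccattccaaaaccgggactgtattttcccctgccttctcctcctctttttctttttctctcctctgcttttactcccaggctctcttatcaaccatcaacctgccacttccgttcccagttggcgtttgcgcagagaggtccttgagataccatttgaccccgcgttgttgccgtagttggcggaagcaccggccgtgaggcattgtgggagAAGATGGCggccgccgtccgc

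Genes that work beside the chain had no member past the test. Of 19 ATP synthase genes tested, the enzyme that uses the proton gradient, 8 lay above 0 and 11 below, with a median log2 fold change of -0.0023, and 0 passed an adjusted p of 0.05. The furthest was Atp5mc2, a gene for the membrane ring, with 4.74, 6.45, 5.11 and 5.002 CPM in Rax-SmoCKO replicates 1 to 4, against 3.96, 4.02, 2.29 and 3.90 CPM in control replicates 1 to 4. Its groups did not overlap, and its log2 fold change was 0.60 (SE 0.26, 95% interval 0.03 to 1.16) with an adjusted p of 0.506 (edgeR quasi-likelihood test, Benjamini-Hochberg). Cytochrome c (Cycs) averaged 33.1 ± 1.49 CPM in Rax-SmoCKO and 33.4 ± 2.41 CPM in control retinas, and cytochrome c1 of complex III (Cyc1), which the symbols of the rule leave out, averaged 69.3 ± 3.87 CPM in Rax-SmoCKO and 69.9 ± 3.55 CPM in control retinas (SD, n = 4 each).

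Of 38 further assembly factors of complexes I to IV, 22 lay above 0 and 16 below, and of 12 regulators of mitochondrial gene expression 4 lay above and 8 below. Neither list had a gene past an adjusted p of 0.05. Of the assembly factors, Sdhaf2 had the smallest p, at 31.8 ± 1.78 CPM in Rax-SmoCKO and 27.1 ± 2.75 CPM in control retinas. The groups of Sdhaf2 did not overlap, at a log2 fold change of 0.23 (SE 0.10) and an adjusted p of 0.51 (edgeR quasi-likelihood test, Benjamini-Hochberg). Of the regulators, the furthest was Polrmt, the mitochondrial RNA polymerase, with 7.35, 7.31, 7.27 and 7.67 CPM in Rax-SmoCKO replicates 1 to 4, against 9.58, 8.99, 9.18 and 8.92 CPM in control replicates 1 to 4. Its groups did not overlap, at a log2 fold change of -0.31 (SE 0.17, 95% interval -0.67 to 0.05) and an adjusted p of 0.593 (edgeR quasi-likelihood test, Benjamini-Hochberg). The coactivator gene Pprc1 averaged 17.6 ± 2.05 CPM in Rax-SmoCKO and 21.2 ± 1.07 CPM in control retinas with overlapping groups, and Gabpb1, the partner of Gabpa, averaged 45.9 ± 1.05 CPM in Rax-SmoCKO and 49.2 ± 2.12 CPM in control retinas with groups that did not overlap (SD, n = 4 each). Of all genes tested, 3.0% were lower and 2.7% higher with groups that did not overlap. Tfam, which packages mitochondrial DNA, averaged 156 ± 6.56 CPM in Rax-SmoCKO and 166 ± 8.97 CPM in control retinas (SD, n = 4 each). Gabpa averaged 61.6 ± 4.44 CPM in Rax-SmoCKO and 64.2 ± 3.501 CPM in control retinas (SD, n = 4 each). The regulators given here were those with the smallest p, and all lay below 0. None of the 4 regulators above 0 is among them. The 37 mitochondrially encoded rows were at 0 in every library, so the partner subunits made inside the mitochondrion were not measured.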

How the data were processed

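Embryonic retinas were isolated and 3′-Tag-Seq libraries made from their RNA with the QuantSeq FWD kit and its module for molecular identifiers. After trimming and alignment to the mouse genome, the authors obtained gene counts with featureCounts. The submitters' processing notes list the tools STAR 2.7.0e and limma, and as builds GRCh38, GRCm38 and mm10. Collapsing of identifiers and use of strand are not given in the sources used here. Whole-number counts of 8 libraries, whose totals differ, were deposited, with the authors' mean of each group, which was not used. A table of the study calls these values normalized, but they were tested as counts. In every library all values from 1 to 20 occur. Each of these above 1 occurs in 0.764 to 1.35 times the geometric mean of the gene numbers at its neighbours. No gap or doubled step of scaled and rounded counts shows there. The methods describe 1 more Rax-SmoCKO sample than the 4 analysed here. Groups came from the sample titles.

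TMM-scaled counts were tested in edgeR 4.0.16 in R 4.3.3 (quasi-likelihood fit on group alone, adjustment by Benjamini-Hochberg over genes that reached 5 counts in 4 or more libraries). The SE was the absolute log2 fold change over the square root of F, and 95% intervals used the total degrees of freedom of the fit. The script was tested on simulated data. Alternatives were DESeq2 size factors, library size alone, upper-quartile scaling, a minimum of 10 counts, no filter, DESeq2 1.42.0, limma-voom (3.58.1), the replicate number as a block, leaving out each library, and leaving out libraries with lens or Y-linked counts. Libraries of a group differed by more than sampling noise, with a chi-square of at least 2.18 per degree of freedom.

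The text names, in each complex and in the assembly factors, the 3 genes with the smallest p and the most abundant gene, genes with a mean of at least 10 counts whose groups did not overlap, and isoform pairs; Ndufa9, Ndufa12, Ndufs5, Ndufb4b, Ndufb4c, Sdhc, Cox6c, Cox5a, Cox5b, the other assembly factors named, the ends of ranges and the genes outside the chain were added after their values were seen. Members and lists were chosen with earlier results of these data known. Positions came from GENCODE M21 and promoters from RefSeq, by symbol. The last 150 bases of protein-coding transcripts were compared by BLAST, and matches of at least 95% identity over at least 50 bases were kept.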

Additional observations from a re-analysis of the deposited data

How the results depend on the processing

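The count of respiratory chain genes past an adjusted p of 0.05 was 0 in edgeR's quasi-likelihood fit, and 0 under every alternative run except no filter on low counts, where it was 2 (Ndufa4l2 and Ndufa1, adjusted p of 0.005 and 0.026). Over all genes tested, 14 passed, against 289 without the filter, 59 with DESeq2 and 36 with the replicate block, and 12 to 19 when each library was left out in turn. Whether the replicate numbers pair the libraries is not known. The correlations of same-numbered deviations were 0.10, 0.25, -0.06 and 0.05. Those of other-numbered deviations ranged from -0.23 to 0.14, so these correlations do not settle it. Under the replicate block 0 of the 76 genes passed. The number of the 76 genes above 0 ranged over 26 to 50 when each library was left out, with 26 without control replicate 3, and their median log2 fold change over -0.02 to 0.03. Of 512 values of the 27 named genes under alternatives, 45 turned sign, in 11 genes near 0. With each library left out, these spanned -0.048 to 0.042 for Cox7a2, -0.25 to 0.20 for Cox7a1, -0.052 to 0.026 for Cox8a, -0.026 to 0.043 for Cox4i1, -0.26 to 0.18 for Cox4i2, -0.040 to 0.23 for Cox6b2, -0.020 to 0.035 for Uqcrh, -0.021 to 0.048 for Cox6a1, -0.039 to 0.19 for Cox7b, -0.0049 to 0.062 for Cox7a2l and -0.015 to 0.19 for Ndufa4. Upper-quartile scaling gave 0.00098 for Cox7a2, and the replicate block 0.0023 for Cox7a1. Leaving out both Rax-SmoCKO libraries that held Y-linked counts, Uqcrh was at -0.042, Cox4i1 at -0.078, Cox4i2 at 0.25 and Cox6b2 at -0.26. Without the 2 libraries richest in lens genes, Uqcrh was at -0.014, Cox4i1 at -0.017, Cox4i2 at 0.037, Cox6b2 at -0.060 and Cox7a2 at 0.020. Without all 3 of those libraries, a setting chosen after seeing the data, Uqcrh was at -0.058, Cox4i1 at -0.069, Cox4i2 at 0.11 and Cox6b2 at -0.27. Leaving out 1 library turned the sign or moved the log2 fold change by over 1.5 times in 21 of the 27 genes, all but Ndufa13, Ndufv3, Ndufa4l2, Sdhd, Ndufaf1 and Ndufaf4. This bound is relative to the log2 fold change itself, so genes near 0 cross it with small shifts. The genes that did not cross it all had an unadjusted p under 0.05 in edgeR's quasi-likelihood test, so this is no separate support for them. The cause of larger shifts was not tested.

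With 4 libraries a group, the median SE of the 76 genes was 0.08 on the log2 scale, and 12 had a 95% interval that reached beyond 0.5, all genes of low level except Ndufa1 and Sdhd, so that a change of that size lay within their intervals. The libraries differed in lens and Y-linked counts and in retinal ganglion cell and progenitor markers, so that levels within single cell types were not measured. Genes that overlap or share a 3′ end may trade counts.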

Other observations

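Mitochondrial genes outside the chain were also near level. Of 78 mitochondrial ribosomal protein genes, which translate the mitochondrially encoded subunits, 28 lay above 0 and 50 below, with a median log2 fold change of -0.03 in Rax-SmoCKO over control, and 0 passed an adjusted p of 0.05. At an unadjusted p under 0.05, 3 of them were lower (Mrps27, Mrpl1 and Mrps18c) and 0 higher, where 4.61% of all genes tested were lower and 4.89% higher, so that the count of lower genes is no larger than that share gives. Mrpl23 was furthest from 0, at 0.47 (SE 0.24), adjusted p 0.569, and Mrps27 lowest, at -0.30 (SE 0.10), adjusted p 0.406 in edgeR's quasi-likelihood test (Benjamini-Hochberg).

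Of 13 further genes of the tricarboxylic acid cycle, which supplies NADH to complex I, 5 lay above 0 and 8 below, with a median log2 fold change of -0.02. Idh3a, a subunit of the isocitrate dehydrogenase that makes NADH, was furthest, at -0.18 (SE 0.07) with an adjusted p of 0.46 by the same test. The 13 intervals all lay within 0.5 of 0.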
